A study of Mus musculus with 6 samples.

Results

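The miRNAs of mouse embryonic stem cells lacking Wt1, given doxycycline for 24 h to induce Wt1, were compared directly with those of untreated wild-type cells by small RNA sequencing. Both groups were 129/Ola embryonic stem cells grown with serum and leukemia inhibitory factor on gelatin. One group was wild type and untreated. The other was a Wt1 knockout (KO) line treated for 24 h with 1 µg/ml doxycycline (dox), a drug used to switch on inducible genes; the study's design names this as inducible expression of Wt1. Each group is 1 library, so no difference has a replicate check, no test between the groups was possible, and every comparison is between libraries. Which clone holds the inducible gene is not stated in the labels, and no dox-treated library of cells without it is used here, so the knockout, the induced Wt1, the drug, the clone and the library cannot be told apart. Small RNA reads do not measure the Wt1 mRNA. The other 4 libraries of the series are untreated Wt1 KO, Wt1 KO with dox for 12 h, and wild type and Wt1 KO with retinoic acid. They enter only through the scaling and as levels beside a result.

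The miRNAs compared are all mature entries with a mean of at least 50 uniquely matched reads over the 2 libraries, which left 331 of 1899. Of the others, 912 had no read in either library and 656 had reads but fewer than the minimum. The dox library held 3629658 unique matches and the wild-type library 1063945, a ratio of 3.41. Because the mean is of unscaled reads, the deeper dox library weighs more: 71 members had under 50 reads in wild type and 3 had under 50 in the dox library. Just inside the minimum stood miR-1187, with a mean of 50.5, and just outside it miR-466d-5p and miR-7046-3p, each with a mean of 49.0. The members held 99.8% of the reads of each of the 2 libraries. Levels are given as normalised CPM, the usual reads per library total after the libraries were scaled to a common composition. In these units 1 read equals 0.918 in wild type and 0.294 in the dox library.

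A miRNA guides the silencing complex to messenger RNAs mainly through bases 2 to 8 of its mature strand, the seed, so miRNAs with the same seed share many predicted targets. Each hairpin gives a 5p and a 3p strand, of which 1 is usually retained. Mouse embryonic stem cells are known for the miR-290 cluster, whose seed promotes rapid cycling, and for low mature let-7, which Lin28 holds back. The protein Wt1 is a transcription factor with zinc fingers, without which kidneys and gonads do not form.

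The sequences that carry the main differences are shown first, 5′ to 3′ in the DNA letters of the deposited tables, with the seed in capitals. These were among the lower miRNAs with the lowest ratios, of which miR-335-3p had under 50 reads with dox and was measured only through wild type:
miR-335-3p: tTTTTCATtattgctcctgacc
miR-21a-3p: cAACAGCAgtcgatgggctgtc
miR-224-5p: tAAGTCACtagtggttccgtt
miR-409-5p: aGGTTACCcgagcaactttgcat
miR-501-3p: aATGCACCcgggcaaggatttg
miR-99b-5p: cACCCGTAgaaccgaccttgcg
These were among the miRNAs with the highest ratios, each with under 50 reads in wild type and measured only through the dox library:
miR-211-5p: tTCCCTTTgtcatcctttgcct
miR-7a-5p: tGGAAGACtagtgattttgttgt
miR-1195: tGAGTTCGaggccagcctgctca
miR-146b-5p: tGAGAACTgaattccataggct
miR-195a-5p: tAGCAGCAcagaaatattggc
In the next set, miR-708-5p had under 50 reads in wild type and was measured only through the dox library. These share a seed within each pair or group and show how differently such miRNAs could stand:
miR-181a-5p: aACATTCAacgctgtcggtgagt
miR-181b-5p: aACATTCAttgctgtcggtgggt
miR-181c-5p: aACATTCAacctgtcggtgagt
miR-181d-5p: aACATTCAttgttgtcggtgggt
miR-28a-5p: aAGGAGCTcacagtctattgag
miR-708-5p: aAGGAGCTtacaatctagctggg

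The libraries shared their most abundant miRNAs, and the largest differences lay in less abundant ones. A miRNA is called higher or lower in the dox library when it differs at least 2-fold, 1 unit on the log2 scale, and its 95% interval excludes 0. The intervals, given in brackets, cover counting error alone: PCR copies were not marked by molecular identifiers, so reads are not independent molecules. By this rule 45 of the 331 miRNAs were higher (13.6%) and 40 were lower (12.1%), or 25.7% in either direction. Of the 45 higher, 28 had under 50 reads in wild type and passed the minimum only through the dox library, so they had to differ to be measured. Of the 40 lower, 3 had under 50 reads with dox. The median log2 ratio of all 331 was 0.17. It was 0.04 as CPM of the total, a shift of -0.13, with 40 higher and 46 lower, so ratios near 0 have no firm sign.

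The 40 lower miRNAs took 15.3% of the wild-type reads and 4.75% of the dox reads. The 45 higher ones took 1.66% and 4.03%. The called miRNAs were thus a small part of the dox library, while the lower ones included abundant miRNAs of wild type. miR-92a-3p, the main strand of the miR-92a hairpins, held 20.1% of the wild-type reads (95% Wilson interval 20.0% to 20.2%) and 22.6% of the dox reads (22.6% to 22.6%). Its log2 ratio was 0.30 [0.29 to 0.30], far from the size rule. miR-127-3p, of the imprinted Dlk1-Dio3 locus, held 14.2% and 14.6%. Of the 10 members with the highest mean reads over the 2 libraries, miR-294-3p was higher and miR-22-3p lower. The other 8 lay between 0.17 and 0.92.

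**Figure D1:**
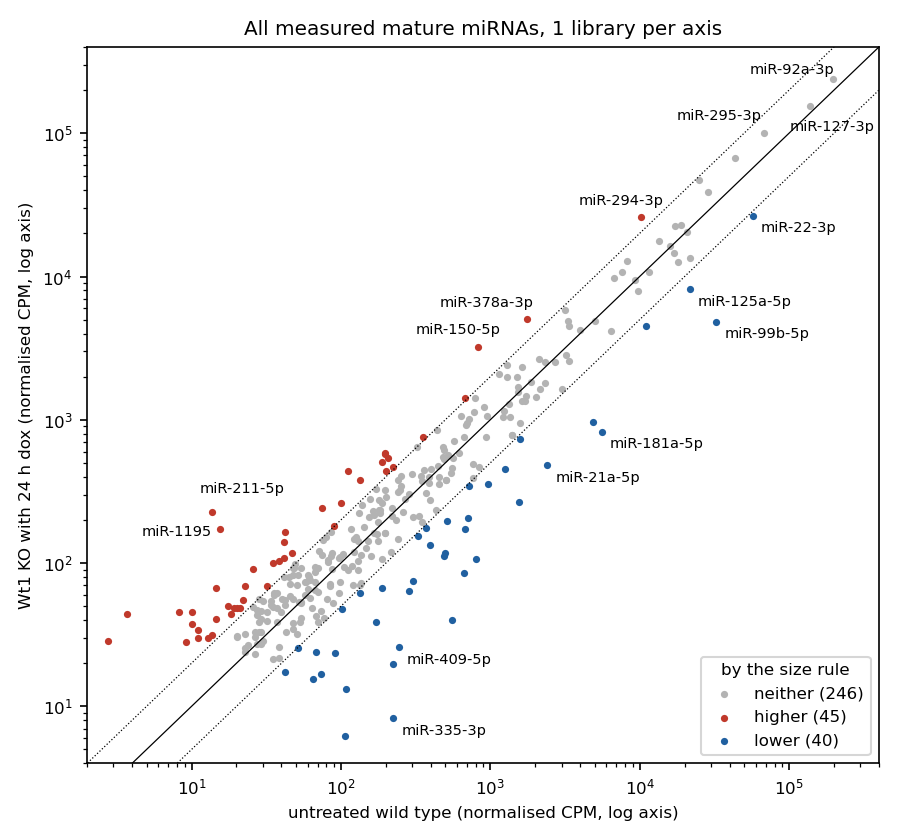
Level of each of the 331 miRNAs in untreated wild type (x axis) and in Wt1 KO with 24 h dox (y axis), in normalised CPM on log axes. The solid line marks equal levels and the dotted lines 2-fold differences. Red points are the 45 higher and blue points the 40 lower miRNAs, with miR-335-3p and miR-211-5p far from the line and miR-92a-3p close to it.

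Distances between libraries were set side by side over the same 331 miRNAs. The median absolute log2 ratio to wild type was 0.53 for 24 h of dox, 0.61 for 12 h of dox and 0.56 for untreated Wt1 KO. These 3 values share the wild-type library. The 24 h library lay closer to the other 2 Wt1 KO libraries without retinoic acid than to wild type: its median absolute log2 ratio was 0.37 to untreated Wt1 KO and 0.30 to 12 h of dox. Within 0.5 of each other on the log2 scale were 159 miRNAs for 24 h of dox and wild type, against 215 for 24 h of dox and untreated Wt1 KO. The median half-width of the intervals was 0.26 and 0.24 in these comparisons, so counting error was similar.

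The miR-290 cluster, on chr7:3218626-3220841 of GRCm38 (plus strand), had 13 measured members, of which 2 were higher and none lower. That share of higher members is near the 13.6% over all 331 miRNAs. Its median log2 ratio was 0.39, beside 0.17 over all miRNAs. miR-294-3p, which carries the cell-cycle seed AAGTGCT, had 11179 reads in wild type and 87869 with dox, or 10262 and 25828 normalised CPM, a log2 ratio of 1.33 [1.30 to 1.36]. Its level was 20274 in untreated Wt1 KO and 18390 after 12 h of dox, so wild type was the lowest of the 4 libraries without retinoic acid.

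miR-295-3p, the most abundant member, had 67688 normalised CPM in wild type and 100930 with dox for 24 h, a log2 ratio of 0.58 [0.56 to 0.59]. miR-291a-5p was at -0.02, the only member with a negative ratio. The second higher member, miR-293-5p, was at 1.10 [0.95 to 1.26], but at 0.97 as CPM of the total, where it is not called. The whole cluster summed to 156614 normalised CPM in wild type and 225000 with dox, a log2 ratio of 0.52 [0.52 to 0.53].

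The miR-302 cluster shares that seed and is typical of primed pluripotency. It had 3 measured members and none was called. miR-302d-3p had 455 normalised CPM in wild type, 102 in untreated Wt1 KO, 138 after 12 h and 397 after 24 h of dox. Its log2 ratio to wild type was -0.20 [-0.35 to -0.04]. miR-302a-3p had 198, 34.0, 64.5 and 161 in the same order. For both miRNAs the 24 h library stood nearest to wild type and the other 2 Wt1 KO libraries lower. Defining markers of stem cells were therefore present in both libraries, with the miR-290 cluster far above the let-7 family, at 0.144% and 0.0913% of the reads.

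The growth-promoting miR-17 family clusters included 7 higher and no lower miRNAs among 22 measured (31.8% against 13.6% over all), with a median of 0.58. Of these 7, 6 come from the X-linked miR-106a to miR-363 cluster on chrX:52741693-52742567 (minus strand), where 6 of 8 measured members were higher. Of these 6, miR-18b-5p, miR-20b-3p and miR-92a-2-5p had under 50 reads in wild type and were measured only through the dox library. So was the other higher member, miR-19b-3p, at 1.11 [0.60 to 1.67] from 35 and 237 reads, which makes 4 of the 7. It has a hairpin copy in this cluster and another on chromosome 14, so its reads cannot be assigned to either. miR-106a-5p had 214 reads in wild type and 1987 with dox, or 196 and 584 normalised CPM, a log2 ratio of 1.57 [1.37 to 1.78]. miR-18b-3p, at 1.99 [1.72 to 2.27], was the highest of the cluster, and miR-363-3p, at 0.40 [0.33 to 0.48], the lowest.

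The related clusters stood otherwise. All 6 measured members of the miR-17 to miR-92a cluster encoded once, on chromosome 14, had ratios between -0.84 and 0.83 with no call. The 6 members of the cluster in the gene Mcm7, from miR-25 to miR-106b, lay between -0.05 and 0.55. miR-93-5p made up 70.5% of the reads of the shared seed AAAGTGC over both libraries, and the sum over its 6 members was at 0.20 [0.16 to 0.24], while miR-106a-5p and miR-20b-5p were higher. The mature strands of these clusters are similar in sequence, so reads may be split between them or lost to several matches.

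The miR-99/100 and miR-125 families stood lowest of the groups with more than 1 measured member. These miRNAs rise during differentiation, and all 6 measured members were lower (12.1% over all), with a median log2 ratio of -2.03. Of the 6, miR-125b-1-3p had under 50 reads with dox and was measured only through the wild-type library. miR-99b-5p was one of the most abundant miRNAs that differed. It had 35563 reads in wild type and 16491 in the deeper dox library, or 32644 and 4847 normalised CPM, a log2 ratio of -2.75 [-2.78 to -2.72]. Its neighbour miR-125a-5p had 21632 and 8171, a log2 ratio of -1.40 [-1.43 to -1.38].

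These strands come from a cluster on chr17:17830188-17830879 (plus strand), within Spaca6, which also holds let-7e. The miR-99b and let-7e hairpins lie in introns of Spaca6 and that of miR-125a overlaps an exon. All 5 measured strands of the cluster were lower, and let-7e-5p, at -2.07 [-2.26 to -1.88], was the only let-7 member called. The other 5 let-7 members lay between -0.54 and 0.49. For miR-99b-5p the level was 11429 in untreated Wt1 KO and 4166 after 12 h of dox, so both dox libraries were below the untreated knockout as well as below wild type. miR-125a-5p had 6766 and 5662 in those 2 libraries, close to its level of 8171 after 24 h.

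From the other loci of these families, miR-125b-5p had 490 normalised CPM in wild type and 112 with dox, a log2 ratio of -2.12 [-2.32 to -1.93]. Its minor strand miR-125b-1-3p was lower still, at -4.06 [-4.85 to -3.43], from 116 and 21 reads. The seed CCCTGAG, shared by miR-125a-5p, miR-125b-5p and miR-351-5p, took 2.43% of the reads in wild type and 0.865% with dox.

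**Figure D2:**
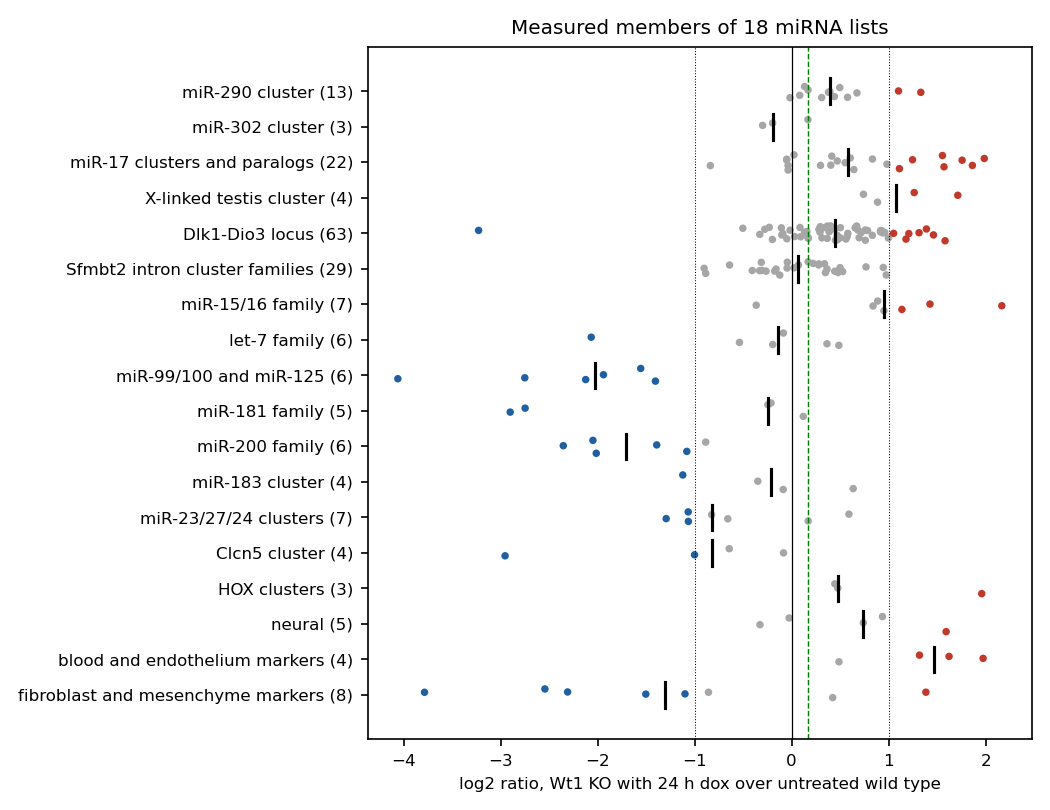
Log2 ratio of Wt1 KO with 24 h dox over untreated wild type for each measured member of 18 lists (number of members in parentheses), with red for higher, blue for lower and grey for neither. Black bars are list medians, the green dashed line is the median of all 331 miRNAs at 0.17 and dotted lines mark 2-fold. The miR-99/100 and miR-125 families lie wholly to the left at a median of -2.03, while the miR-290 cluster has a median of 0.39.

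Of 6 measured miR-200 family members, 5 were lower (12.1% over all) and none higher, with a median of -1.70. These miRNAs hold cells epithelial by repressing Zeb1 and Zeb2. miR-200b-3p had 5343 reads in wild type and 3262 with dox, or 4904 and 959 normalised CPM, a log2 ratio of -2.35 [-2.42 to -2.29]. All 4 measured strands of the locus on chr4:156053905-156055750 (minus strand) were lower, from miR-200b-3p to miR-429-3p at -1.39 [-1.56 to -1.23]. The second locus, on chr6:124717914-124718390 (minus strand), stood nearer to wild type, with miR-141-3p at -1.08 [-1.44 to -0.72] and miR-200c-3p, uncalled, at -0.89 [-1.05 to -0.72]. As CPM of the total miR-200c-3p was at -1.01 and would be called.

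Both seeds of the family were lower when their reads were summed. The seed AATACTG of miR-200b, miR-200c and miR-429 was at -2.07 [-2.13 to -2.02], and the seed AACACTG of miR-200a and miR-141 at -1.72 [-1.92 to -1.53]. In untreated Wt1 KO and after 12 h of dox miR-200b-3p had 1483 and 857 normalised CPM, so its wild-type level stood above all 3 Wt1 KO libraries without retinoic acid. miR-205-5p, another miRNA of epithelia, was also lower with dox, at -1.45 [-1.56 to -1.34].

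The miR-181 family, known from lymphocyte development, split by paralog. miR-181a-5p had 6055 reads in wild type and 2814 with dox, or 5558 and 827 normalised CPM, a log2 ratio of -2.75 [-2.81 to -2.68]. miR-181b-5p stood at -2.90 [-3.09 to -2.73]. Both are encoded together on chromosomes 1 and 2. The paralogs from the locus on chr8:84178716-84178961 (minus strand) were not called: miR-181c-5p had 2343 and 2547 normalised CPM, a log2 ratio of 0.12 [0.06 to 0.18], and miR-181d-5p was at -0.24 [-0.32 to -0.17].

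The most abundant miRNA with the seed ACATTCA was miR-181a-5p in wild type and miR-181c-5p with dox. The sum over the 4 members was at -1.08 [-1.11 to -1.04]. miR-181a-5p was at 364 normalised CPM in untreated Wt1 KO and 659 after 12 h of dox, so all 3 Wt1 KO libraries without retinoic acid stood far below wild type.

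miR-335-3p had the lowest ratio of all 331 miRNAs. Its hairpin lies on chr6:30741299-30741396 (plus strand), in an intron of the imprinted gene Mest. It had 243 reads in wild type and 28 with dox, or 223 and 8.23 normalised CPM, a log2 ratio of -4.72 [-5.38 to -4.19]. With under 50 reads with dox, it was measured only through the wild-type library. In untreated Wt1 KO it had 4.96 and after 12 h of dox 14.1, so only wild type was high among these 4 libraries. The other strand, miR-335-5p, was under the minimum, with 6 reads in wild type and 1 with dox.

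Several miRNAs of fibroblasts and mesenchyme were lower as well: 5 of 8 measured members were lower and 1 higher (12.1% and 13.6% over all), with a median of -1.30. miR-21a-5p, abundant in fibroblasts and many differentiated cells, had 2406 normalised CPM in wild type and 485 with dox, a log2 ratio of -2.31 [-2.40 to -2.22]. Its minor strand miR-21a-3p stood at -3.79 [-4.07 to -3.52]. miR-31-5p was at -2.54 [-2.66 to -2.43].

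miR-22-3p was the most abundant of all lower miRNAs, with 57033 normalised CPM in wild type and 26614 with dox, a log2 ratio of -1.10 [-1.11 to -1.08]. It had 15082 in untreated Wt1 KO and 30160 after 12 h. The member that was higher, the joint entry of miR-199a-3p and miR-199b-3p, stood at 1.38 [0.94 to 1.87] from 45 and 368 reads. That entry was measured only through the dox library. The list's summed share was 6.36% of the reads in wild type (6.32% to 6.41%) and 2.61% with dox (2.60% to 2.63%), mostly miR-22-3p. miR-214-3p, another mesenchymal marker, had 1 read in wild type and 0 with dox, which allows up to 0.882 normalised CPM there. In bulk RNA, fewer cells of a type and less RNA per cell cannot be told apart, and whether other cell types took part in these differences was not tested.

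Of the muscle and mesoderm list, 13 of 19 entries had no read in either library, among them all strands of miR-1a, miR-133b and miR-206. The 2 measured members stood on opposite sides. miR-133a-3p, of muscle, had 118 reads in wild type and 45 with dox, a log2 ratio of -3.01 [-3.56 to -2.53]. It had under 50 reads with dox and was measured only through the wild-type library. miR-143-3p, of smooth muscle and mesenchyme, had 225 and 1853 reads, or 207 and 545 normalised CPM, a log2 ratio of 1.40 [1.20 to 1.61].

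For a pair of lower miRNAs, picked after their levels were seen, the untreated knockout stood with wild type and the dox libraries stood far below both. miR-501-3p, from the Clcn5 intron cluster on the X chromosome, had 665 normalised CPM in wild type and 529 in untreated Wt1 KO, but 45.9 after 12 h and 85.5 after 24 h of dox. Its log2 ratio at 24 h to wild type was -2.95 [-3.16 to -2.76]. miR-409-5p, from the Dlk1-Dio3 locus, had 244 and 374 in the untreated libraries and 21.2 and 25.9 with dox, a ratio at 24 h of -3.23 [-3.60 to -2.89]. In miR-224-5p, from an intron of Gabre, the untreated knockout stood between wild type and the dox libraries. It had 223 in wild type, 53.9 in untreated Wt1 KO, 8.83 after 12 h and 19.7 after 24 h, a ratio of -3.49 [-3.91 to -3.11].

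**Figure D3:**
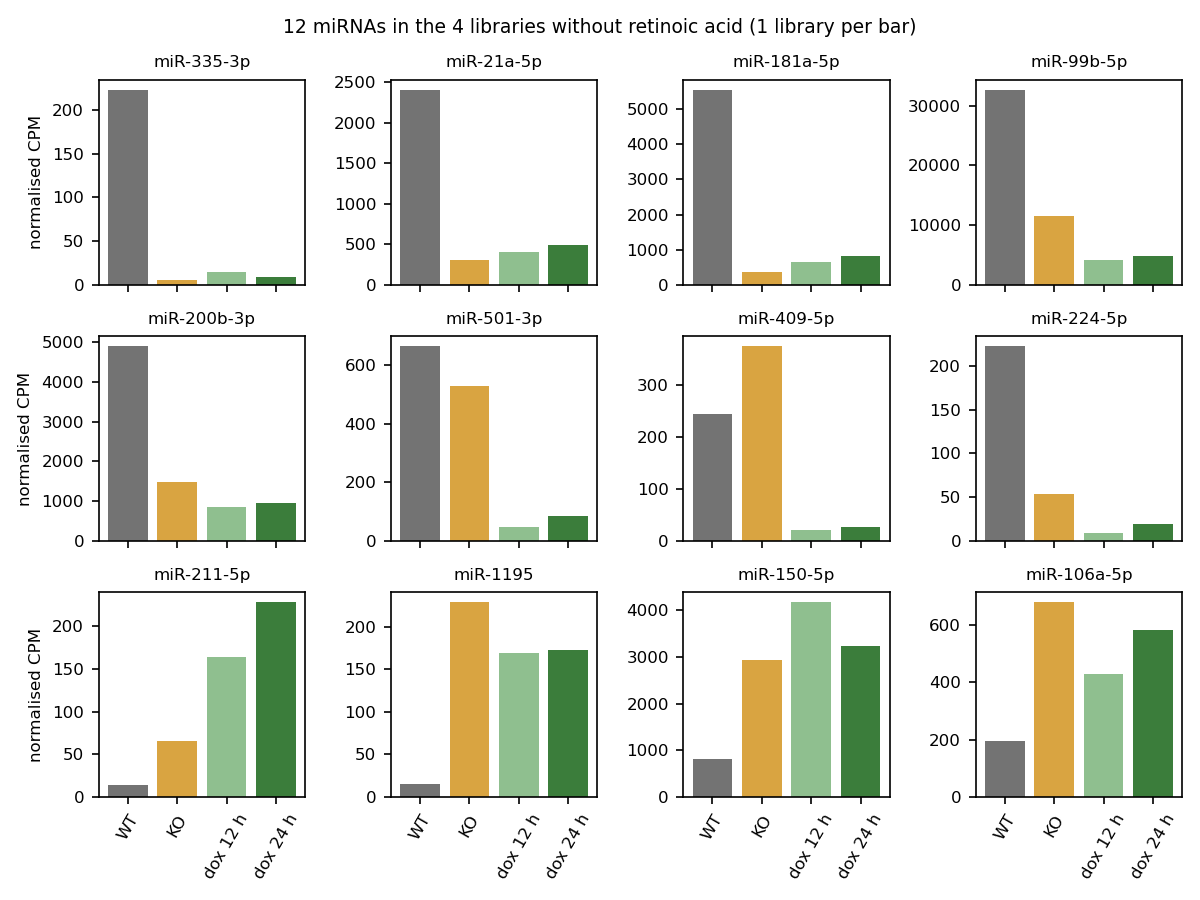
Normalised CPM of 12 miRNAs in the 4 libraries without retinoic acid, 1 library per bar (WT, untreated wild type; KO, untreated Wt1 KO; Wt1 KO with 12 h and with 24 h of dox). Each panel has its own axis from 0. miR-335-3p is high in wild type alone, miR-409-5p and miR-501-3p are high in both untreated libraries, and miR-211-5p goes from 13.8 in wild type to 228 after 24 h of dox.

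Among the higher miRNAs, miR-211-5p had the largest ratio. It is encoded on chr7:64205806-64205911 (plus strand) in an intron of Trpm1 and is known from pigment cells. It had 15 reads in wild type and 775 with dox, or 13.8 and 228 normalised CPM, a log2 ratio of 4.03 [3.32 to 4.89]. With so few wild-type reads, it was measured only through the dox library. Its level was 65.9 in untreated Wt1 KO and 163 after 12 h of dox. The 24 h library was thus the highest of the 4 without retinoic acid and wild type the lowest.

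Its close relative miR-204-5p, a kidney-enriched miRNA with the same seed TCCCTTT, was under the minimum. It had 3 reads in wild type and 43 with dox, a log2 ratio of 2.11 [0.55 to 4.53]. These sequences show how near the pair is:
miR-211-5p: tTCCCTTTgtcatcctttgcct
miR-204-5p: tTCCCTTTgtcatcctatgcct
Reads of one could therefore be counted at the other. The 2 measured members of the kidney list, miR-192-5p at 0.35 [0.01 to 0.70] and miR-194-5p at -0.12 [-0.71 to 0.51], were not called.

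miR-7a-5p, known from neuroendocrine cells, had 4 reads in wild type and 151 with dox, a log2 ratio of 3.52 [2.21 to 5.49]. miR-1195 had 17 and 586 reads, a log2 ratio of 3.45 [2.77 to 4.25], with 229 normalised CPM in untreated Wt1 KO and 15.6 in wild type. miR-1187 had 3 and 98 reads, and its interval of 1.80 to 5.69 shows how little so few wild-type reads fix. These miRNAs had under 50 reads in wild type and were measured only through the dox library. With so few wild-type reads they had to stand higher to be measured, so neither the direction nor the size is firm.

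The miR-15/16 family, which restrains the cell cycle, had 3 of 7 measured members higher (13.6% over all) and none lower, with a median of 0.95. All 3 come from the miR-497 and miR-195 cluster on chr11:70234717-70235135 (plus strand). Of these, only miR-497a-5p had 50 reads or more in wild type, and both miR-195a strands were measured only through the dox library. miR-195a-5p had 16 reads in wild type and 227 with dox, a log2 ratio of 2.17 [1.45 to 3.02], and miR-497a-5p stood at 1.14 [0.93 to 1.35]. miR-16-5p, the most abundant of the family, had 3174 and 5871 normalised CPM, a log2 ratio of 0.89 [0.84 to 0.94], short of the rule.

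The blood and endothelium list had 3 of 4 measured members higher (13.6% over all) and none lower, with a median of 1.47. Of the 3, both miR-126a strands had under 50 reads in wild type and were measured only through the dox library, so the count is no support for the list. miR-150-5p, a miRNA of mature lymphocytes that represses Myb, had 898 reads in wild type and 11019 with dox, or 824 and 3239 normalised CPM, a log2 ratio of 1.97 [1.88 to 2.07]. Its level was 2937 in untreated Wt1 KO and 4170 after 12 h of dox. Wild type was again the only low library of the 4.

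The strands of the endothelial miR-126a had few reads in wild type. miR-126a-3p was at 1.32 [0.71 to 2.00], from 24 and 188 reads, and miR-126a-5p at 1.62 [0.78 to 2.64], from 12 and 117. The fourth measured member, miR-155-5p, was at 0.49 [0.12 to 0.88]. The list's summed level was 929 normalised CPM in wild type and 3450 with dox, mostly miR-150-5p. The defining blood miRNAs miR-223, miR-144 and miR-451a had no read in either library.

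Of the metabolic miR-378 family, miR-378a-3p, from an intron of Ppargc1b, had 1766 normalised CPM in wild type and 5029 with dox, a log2 ratio of 1.51 [1.44 to 1.58]. The level was 4212 in untreated Wt1 KO and 4288 after 12 h of dox, again with wild type alone low. Both its minor strand miR-378a-5p, at 1.52 [0.85 to 2.30], and miR-378d, at 1.51 [1.26 to 1.77], were higher by nearly the same factor. From 19 reads in wild type and 172 with dox, miR-378a-5p was measured only through the dox library, so its ratio is no support for the others. miR-378d is close in sequence to miR-378a-3p, so their reads may be shared.

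HOX cluster miRNAs mark positional identity along the body axis. miR-196a-5p had 42.2 normalised CPM in wild type and 165 with dox, a log2 ratio of 1.96 [1.53 to 2.43]. It was 117 in untreated Wt1 KO and 68.0 after 12 h. The other 2 measured members, miR-10a-5p and miR-10b-5p, were at 0.45 [0.06 to 0.86] and 0.48 [0.24 to 0.72]. miR-196a-5p had 46 reads in wild type and was measured only through the dox library. Under the minimum, the HOX cluster miRNA miR-615-3p was lower, at -1.83 [-2.69 to -1.03], from 29 reads in wild type and 25 with dox. Among neural markers 1 of 5 was higher, which is near the 13.6% over all, namely miR-124-3p at 1.59 [1.00 to 2.26] from 25 and 237 reads, and none was lower. With so few wild-type reads, miR-124-3p too was measured only through the dox library. miR-9-5p was at 0.94 [0.71 to 1.17].

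The X-linked testis cluster had 2 of 4 measured members higher (13.6% over all) and a median of 1.07. They were miR-470-5p at 1.71 [1.39 to 2.06], from 81 and 831 reads, and miR-465c-5p at 1.26 [0.60 to 2.03], from 20 and 151. Of these 2, miR-465c-5p was measured only through the dox library. In the imprinted Dlk1-Dio3 locus 7 of 63 members were higher (11.1%, beside 13.6% over all) and 1 was lower. Its median was 0.45. Of the 7 higher, 4 had under 50 reads in wild type and were measured only through the dox library. The lower member was miR-409-5p, the minor strand of its hairpin. None of the 29 measured members of the miR-297, miR-466, miR-467 and miR-669 families was called, 27 of which have a hairpin in an intron of Sfmbt2, and their median of 0.07 becomes -0.06 as CPM of the total, where 2 of them are called lower.

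Members that share a seed or a transcript did not always stand alike. Of 38 seeds with at least 2 measured members, 6 were lower and 1 was higher in the sum of their reads. The seed AGGAGCT was the only one of the 38 with members on both sides. miR-28a-5p had 677 normalised CPM in wild type and 173 with dox, a log2 ratio of -1.97 [-2.13 to -1.81]. miR-708-5p had 38.6 and 103, a log2 ratio of 1.41 [0.95 to 1.91]. With 42 reads in wild type and 350 with dox, miR-708-5p was measured only through the dox library, so its side is not firm. miR-28a-5p held more reads in both libraries, and the seed's sum was at -1.38 [-1.52 to -1.24].

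The seed TCACAGT of miR-27a and miR-27b was lower too, at -1.29 [-1.32 to -1.25], nearly all from miR-27b-3p. The seed AAGGTGC of miR-18a and miR-18b was the one that was higher, at 1.28 [0.97 to 1.61]. Its member miR-18b-5p, with 45 reads in wild type and 477 with dox, was measured only through the dox library. The other, miR-18a-5p, was not called, at 0.64 [0.20 to 1.11]. By position, 168 members with a single hairpin copy fell into 27 clusters of at least 2 hairpins within 10000 bases on a strand. In 3 clusters every measured member was called, namely miR-200b to miR-429, miR-99b to miR-125a and miR-497 to miR-195a, the last with 2 of its 3 members measured only through the dox library. In 13 clusters no member was. The median spread from the lowest to the highest member of a cluster was 1.24 on the log2 scale.

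The balance of the strands of a hairpin does not depend on the scaling. Of 67 hairpins with both strands measured, 33 had a balance that differed between the libraries beyond the counting interval, and 12 of these by at least 2-fold. Among these 12, miR-134, miR-15b, miR-322 and miR-877 had a strand with under 50 reads in wild type. Such a strand was measured only through the dox library, so these hairpins add little to the count. The largest difference was in miR-409, where the 5p strand made up 2.89% of the reads in wild type (2.56% to 3.25%) and 0.200% with dox (0.162% to 0.246%). The difference of the log2 balance was -3.89 [-4.24 to -3.54]. Its main strand, miR-409-3p, was at 0.65, so the strands stood on opposite sides of wild type.

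The 5p share of miR-409 was 2.64% in untreated Wt1 KO and 0.197% after 12 h of dox, so among the 4 libraries without retinoic acid those with and without dox formed separate levels. In miR-27b the minor 5p strand went the other way, with 0.674% of the reads in wild type (0.543% to 0.836%) and 2.45% with dox (2.22% to 2.70%). There miR-27b-3p was lower, at -1.29 [-1.33 to -1.26], and miR-27b-5p was at 0.59. For miR-423 the 5p share was 10.5% in wild type (10.0% to 11.1%) and 20.8% with dox (20.4% to 21.2%). For miR-21a it was 81.2% (79.8% to 82.5%) and 92.3% (91.0% to 93.5%). For miR-99b it was 98.8% (98.7% to 98.9%) and 97.3% (97.1% to 97.6%). In 5 of the 67 hairpins the strand with more reads was another one in each library, among them miR-674 and miR-379.

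**Figure D4:**
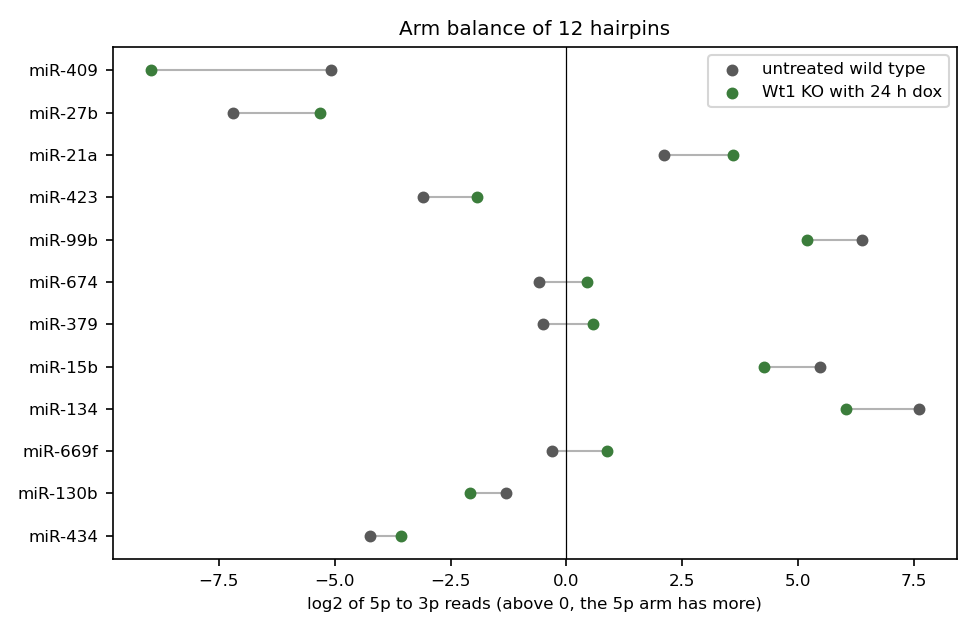
Log2 of the ratio of 5p to 3p reads for the 12 hairpins whose balance differed most by interval bound, in untreated wild type (grey) and in Wt1 KO with 24 h dox (green), 1 library per point. A point right of 0 means more 5p reads. miR-409 has the longest shift, -3.89, and miR-674, miR-379 and miR-669f cross 0.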

How the data were processed

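Total RNA was ligated to 3′ and 5′ adapters, reverse transcribed, amplified and cut from a gel around the miRNA band and a slightly longer band, per the labels' protocols. The deposited tables give, per mature miRNA, whole counts of unique matches and of multiple matches, per the file headers. Of the columns, unique matches were used, with multiple matches as an alternative. No source used here gives the aligner, the miRNA database version or the genome build. Trimmed mean of M values (TMM) factors came from edgeR 4.0.16 in R 4.3.3 over the 6 libraries, on entries with a mean of at least 50. A log2 ratio is of scaled counts with 0.5 added to each library. Intervals are 95% exact conditional binomial (Clopper-Pearson) for ratios, Wilson for shares and normal for strand balance. With 1 library per group no p-value is given. Hairpin coordinates are from RefSeq and hosts from GENCODE, both on GRCm38, for all 331 members. Sequences are those of the deposited tables, and those on chromosome 18 are not shown. A miRNA was named for its interval bound, its abundance, its list, its strands or its seed. The members, lists and rules were chosen with earlier results of these data known. Python 3.11.15 with pandas 2.3.3 and scipy 1.17.1 did the remaining steps. Alternatives were the scaling, the minimum, the added count, the fold and the multiple matches.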

Additional observations from a re-analysis of the deposited data

How the results depend on the processing

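No paired analysis was possible because each group is 1 library. The main rule gave 45 higher and 40 lower miRNAs. Scaling moved the counts by less than 1.5 times: 40 and 46 as CPM of the total, 42 and 44 with TMM over the 2 compared libraries, 47 and 39 with median-of-ratios factors from DESeq2 1.42.0, and 44 and 41 as CPM with the 2 stem cell clusters left out of the totals. A minimum mean of 10 gave 57 higher and 71 lower, a minimum of 200 gave 22 and 26, and no minimum gave 59 and 88. A fold of 1.5 in place of 2 gave 88 higher and 67 lower. Requiring the interval's bound itself to pass 2-fold gave 23 higher and 33 lower. Counting multiple matches gave 48 and 39. The minimum changes how many miRNAs are analysed, 485 at 10, 206 at 200 and 987 with none, and the fold and bound rules shift the threshold itself. For the moves with scaling the cause was not tested. Depth limits the ratios of miRNAs with few wild-type reads, since 3 reads there equal 2.75 normalised CPM. No called miRNA took the opposite direction under any of these settings. This could hardly fail, since a call needs 1 log2 unit and the largest shift of the median by scaling was -0.13. The minimum, fold and bound rules leave the ratios as they were. Without replicates, the intervals say nothing of the spread between cultures.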

Other observations

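Further lists are read against the 13.6% of all measured miRNAs that were higher and the 12.1% that were lower. In the miR-23/27/24 clusters 3 of 7 measured members were lower and none higher, with a median of -0.83, and miR-27b-3p led them with 11095 normalised CPM in wild type and 4525 with dox. In the Clcn5 cluster 2 of 4 were lower, miR-501-3p and miR-188-5p, with a median of -0.82, and miR-188-5p is not called under median-of-ratios factors. Of the miR-183 cluster only miR-96-5p was lower, at -1.12, while miR-182-5p took 4.44% of the wild-type reads and 6.32% of the dox reads. Of the miRNAs reported to target pluripotency factors, 2 of 5 were higher, miR-134-3p and miR-470-5p, the first with under 50 reads in wild type. miR-134-3p is the minor strand of its hairpin, with 10 reads in wild type and 95 with dox. The main strand, miR-134-5p, had 2029 and 6265 reads and a log2 ratio of -0.02. The sum over the list was at 0.07 [0.01 to 0.13]. The miR-30 list had 1 higher member, miR-30c-5p, and so had the miR-148 list, with miR-148a-5p, or 11.1% and 25% of their measured members. Neither is called as CPM of the total. None of the measured members of the miR-26, miR-34 and miR-449, miR-130 and miR-301, miR-322 to miR-542, non-canonical, endoderm and broadly expressed lists was called.

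Below the minimum, and so outside the counts above, 14 miRNAs were higher and 48 lower by the same rule, of 656 with reads. The minimum weighs the deeper dox library more, so miRNAs low there more readily fell under it. These 2 counts therefore say nothing of a lean to lower. miR-181a-1-3p had 18 reads in wild type and 1 with dox, and let-7e-3p had 22 and 5. Both are minor strands of hairpins whose main strand was lower. miR-142a-5p, a blood miRNA, had 2 reads in wild type and 71 with dox. By chromosome, the lowest median log2 ratio was -1.48, over 8 members of chromosome 17, of which 5 belong to the miR-99b cluster. The median GC content was 45.5% in higher miRNAs, 51.1% in lower ones and 48.0% in the others. Over the 331 miRNAs, which share 2 libraries, GC content and log2 ratio had a Spearman rho of -0.22, given as a description across miRNAs.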
